A study of Mus musculus with 9 samples.

Results

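The genes of the SNARE exocytosis and fusion machinery were followed in neutrophils of 3 compartments of tumor-bearing mice, the bone marrow, the blood and the pancreatic tumor. Members were chosen by name only, as the syntaxins (Stx), syntaxin-binding proteins (Stxbp), vesicle-associated membrane proteins (Vamp), Snap23, Snap25, Snap29, Snap47, Vti1a, Vti1b, the Unc13 and Sytl families, Ykt6, Gosr1, Gosr2, Bet1, Bet1l, Napa, Napg and Nsf. The table held 50 such genes among 46517. Vamp7 was not analysed here. Orthotopic transplanted (OT) mice were C57BL/6 animals injected in the pancreas with tumor cells derived from KPC mice, a model of pancreatic ductal adenocarcinoma (PDAC). Cells were taken at day 27, and all 3 groups came from tumor-bearing animals, so no library represents a tumor-free mouse. Neutrophils were sorted as Dapi-CD45+Lin-Ly6G+Ly6C+ cells, and the labels call the marrow gate Ly6G.hi. Each compartment had 3 libraries, each from a pool of 5 mice in an independent experiment, so that values of single mice were not measured.

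SNARE proteins drive membrane fusion. A vesicle SNARE of the VAMP type zips together with a syntaxin and a SNAP-25 type protein on the target membrane, while Munc18 proteins hold the syntaxin, Munc13 proteins prime the vesicle, and the ATPase NSF with its SNAP adaptors takes the spent complex apart. In neutrophils the same machinery releases the azurophil, specific and gelatinase granules and the secretory vesicles, with Rab27a and its effectors bringing granules to the plasma membrane. Loss of UNC13D, STX11 or STXBP2 in humans impairs granule release by cytotoxic lymphocytes and causes familial hemophagocytic lymphohistiocytosis.

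Between 4580807 and 7949367 reads per library were recovered from the deposited values. A mean of at least 10 reads per library was reached by 44 members, whose means ran from 11.4 to 4489 reads with a median of 224. The others stayed below it and were not tested, among them Snap25, Stx19, Stx1a, Sytl5 and Unc13c. Levels are given as exonic RPKM, the recovered reads per kilobase of exon at a library size, scaled by the authors, of 1000000 reads. Reads at that library size alone are called RPM. Fold changes are differences of the deposited log2 FPKM (limma, Benjamini-Hochberg over 12217 genes), and a gene was called at an adjusted p below 0.05. The authors' scaling set the median gene 0.45 lower on the log2 scale than plain library totals did in both tumor contrasts. Values from plain totals are therefore given beside tumor contrasts where the call depends on the scaling. With 3 libraries against 3, an exact permutation test of a single gene cannot give a p below 0.1.

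The neutrophil markers S100a8 and Ly6g were detected in every library, S100a8 at medians of 6987, 3024 and 793 RPM and Ly6g at 713, 133 and 35.5 in bone marrow, blood and tumor. Not all neutrophil markers fell along that line, since Csf3r had medians of 2699, 13030 and 2777 RPM and Cxcr2 of 3204, 7887 and 1530 in the same order. The 10 neutrophil markers together summed to 111700 to 124700 RPM across bone marrow, 35690 to 37900 across blood and 12920 to 16990 across tumor libraries. Other cell types left reads as well. The summed level of 10 tumor epithelium markers was 10.1 to 13.3 RPM across bone marrow libraries, 25.4 to 174 across blood and 2719 to 5112 across tumor libraries, with Krt8 alone at a median of 1101 in tumor. Blood replicate 2 stood apart from the other blood libraries, with the epithelium list at 174 against 27.6 and 25.4. The 6 platelet markers summed to 8.13 to 13.6 across bone marrow, 556 to 776 across blood and 3.38 to 9.92 across tumor libraries. Further lists were high in the same libraries. Summed RPM of 6 fibroblast markers was 962 to 1106 in tumor and at most 12.6 elsewhere, that of 5 acinar markers was 438 to 1720 against at most 8.95, and that of 4 endothelium markers was 61.3 to 108 against at most 42.4. In blood, the sum of 7 macrophage markers reached 1290 to 1465 against at most 455 elsewhere. That of 5 red cell markers reached 280 to 567 against at most 126, and that of 6 lymphocyte markers 67.6 to 116 against at most 53.1. The macrophage list was not uniform. Its C1qa was lowest in blood, with medians of 4.34, 2.56 and 4.36 RPM in bone marrow, blood and tumor, and its Adgre1 overlapped between blood (184.5 to 224.9) and tumor (96.56 to 202.1). In such bulk libraries, fewer cells of a type and less RNA per cell cannot be told apart.

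Of the 44 members tested, 21 were lower and 9 higher in tumor than in blood, where 28% of all genes tested were lower and 39.6% higher. Against bone marrow, 21 were lower and 9 higher in tumor, beside 26.9% and 30% of all genes. Between blood and bone marrow, 12 members were higher in blood and 9 lower, beside 18.4% and 25.9%. Among those called higher in tumor than in blood, Unc13a, Unc13b, Sytl2, Stxbp4 and Stxbp6 reached the minimum mean of reads only through tumor reads. Sytl3 and Sytl4 reached it only through blood reads. The direction of such calls was largely set by the filter. The median log2 fold change of the members was -0.46 in tumor against blood and -0.48 in tumor against bone marrow, whereas the medians of all genes tested were 0.30 and 0.07. Blood against bone marrow gave 0.08 for the members and -0.13 for all genes. Plain totals moved the split of the members to 15 higher and 15 lower in tumor against blood (all genes 49.3% and 19.4%) and to 14 higher against bone marrow with 12 lower (all genes 42% and 17.3%). On that scale the members' medians were -0.01 and -0.03, with 0.74 and 0.52 for all genes. The median of the members thus lay below the median of all genes in both tumor contrasts under either scaling. At least 1 contrast was called for 37 members, while Gosr1, Stx12, Stx4a, Stx6, Stx7, Vamp2 and Vamp4 passed in none. The share of all genes called in at least 1 contrast was not computed, so the count of 37 is not set against it.

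**Figure D1:**
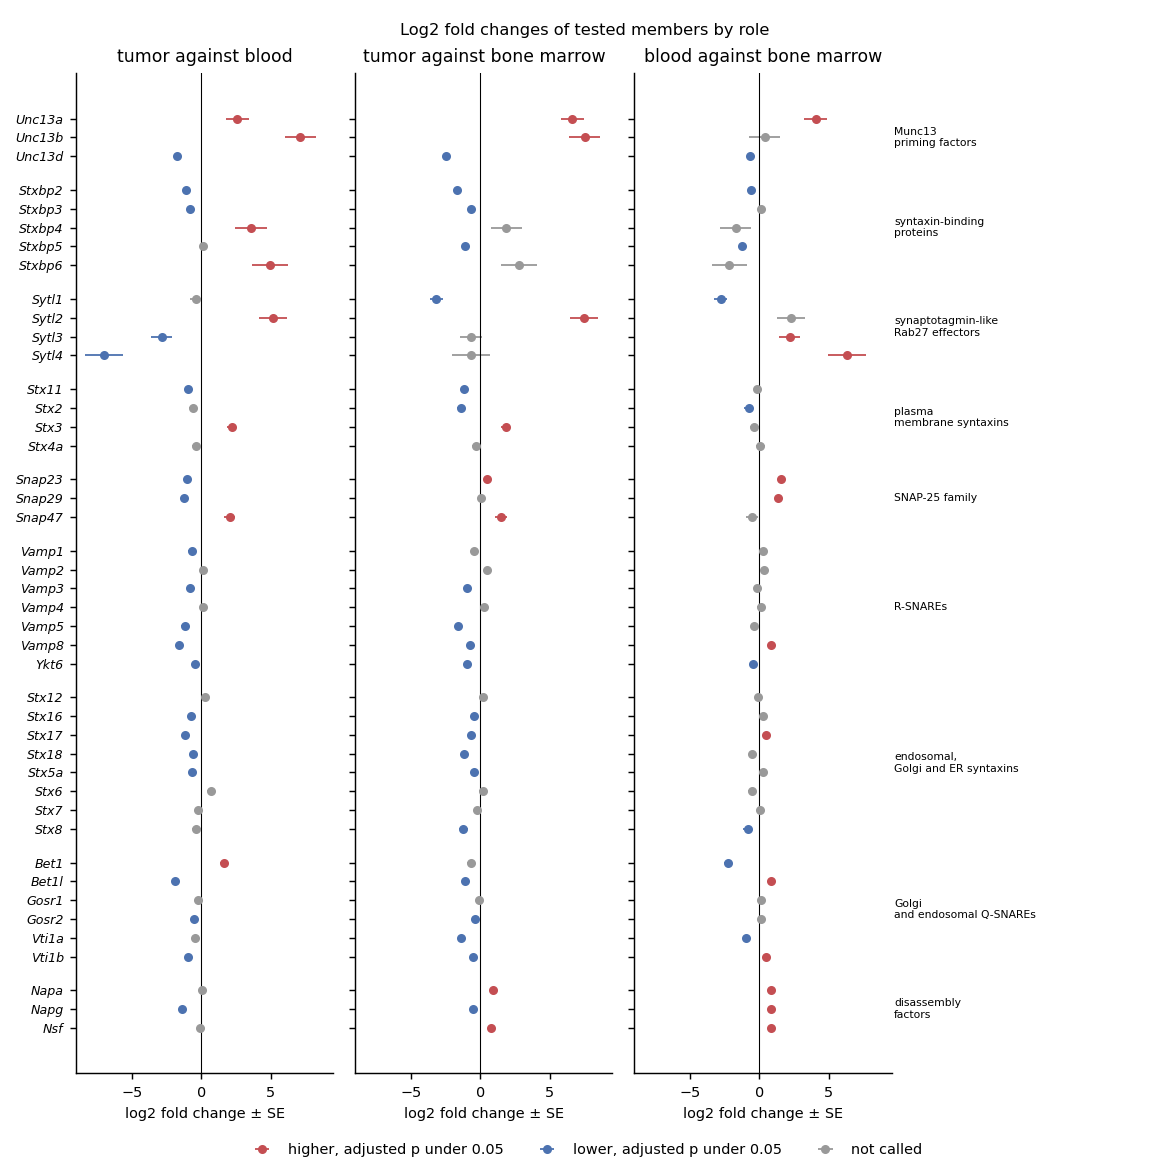
Log2 fold change of tested members with its standard error, grouped by role, in tumor against blood, tumor against bone marrow and blood against bone marrow; red points were higher and blue points lower at an adjusted p below 0.05, and grey points were not called. The widest changes belonged to Unc13, Sytl and Stxbp genes with few reads in at least 1 compartment, whereas most SNAREs changed by less than 2 on the log2 scale.

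**Figure D2:**
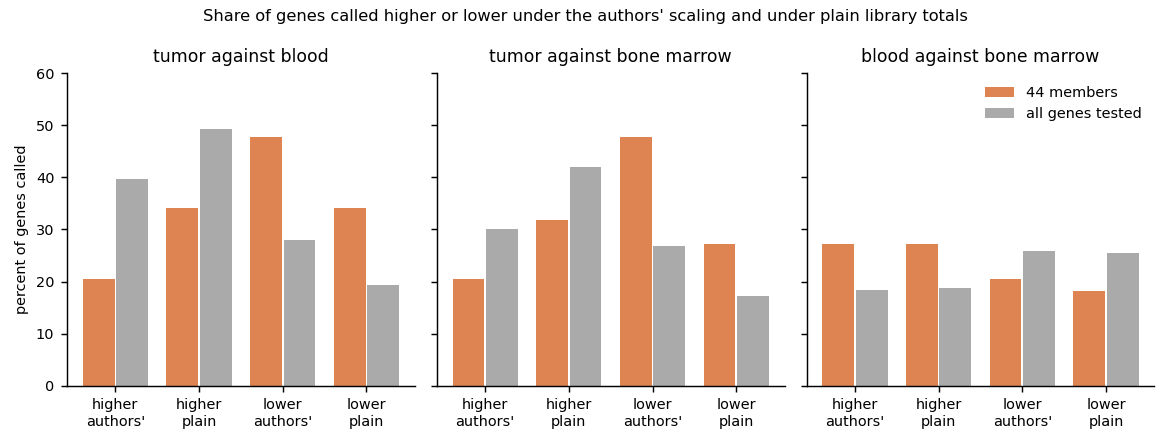
Percent of the 44 members (orange) and of all genes tested (grey) called higher or lower in each contrast, under the authors' scaling and under plain library totals. In both tumor contrasts and under both scalings, the orange bar stood above the grey one for lower and below it for higher.

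The priming factor Unc13d (Munc13-4, which docks and primes granules as a Rab27a effector; ENSMUSG00000057948.11, chr11:116062095-116077961, minus strand on GRCm38) stepped down from bone marrow to blood to tumor. Its exonic RPKM was 61.6, 69.1 and 48.7 for bone marrow, 37.3, 40.8 and 33.7 for blood and 11.7, 9.58 and 11.1 for tumor, and no library of one compartment overlapped another. The log2 fold change was -1.79 (SE 0.15, adjusted p = 2.57e-06) in tumor against blood, -2.46 (SE 0.15, adjusted p = 3.30e-07) in tumor against bone marrow and -0.67 (SE 0.15, adjusted p = 0.00426) in blood against bone marrow. These correspond to levels 3.46-fold, 5.51-fold and 1.59-fold lower, and with plain totals the tumor changes were -1.34 and -2.01. The summed neutrophil markers fell in the same order of compartments. The part of the cell mix in the lower tumor level of Unc13d, and of the other genes lower in tumor below, was not tested. The neuronal type paralogs went the other way from a base of almost no reads. Unc13b (Munc13-2) had 1, 0 and 0 reads for bone marrow, 0, 2 and 0 for blood and 44, 84 and 140 for tumor, a ratio of scaled rates of 87.8 in tumor over blood with a 95% counting interval of 24.1 to 729. Unc13a (Munc13-1) had 0, 0 and 1 reads for bone marrow, 5, 4 and 5 for blood and 36, 93 and 25 for tumor. It was higher in tumor than in blood, 2.58 (SE 0.84, adjusted p = 0.0181), and higher in blood than in bone marrow, 4.04 (SE 0.84, adjusted p = 0.0027), where bone marrow held 1 read and the ratio of scaled rates was 18.7 (95% counting interval 2.84 to 790). With 1 FPKM added before the log, the second of these was not called (0.03, adjusted p = 0.763). The tumor against blood call of Unc13a was lost without tumor replicate 2 (adjusted p = 0.0689), and its exons share sequence with the opposite strand gene Colgalt1. Unc13a and Unc13b reached the minimum mean of reads only through their tumor reads, so the direction of their tumor calls was largely set by the filter. Unc13c had 1 read in a blood library and 1 in a tumor library. Per kilobase of exon, Unc13d made up 86.6% to 93.8% of the Munc13 family in tumor libraries and at least 99.7% in every other library. The epithelium, fibroblast, acinar and endothelium markers were high in the same tumor libraries as Unc13a and Unc13b, and their part in these values was not tested. Within the tumor, Unc13a was highest in replicate 2, the library lowest for the epithelium markers, and Unc13b in replicate 3, the highest for them. The endothelium markers, at 82.7, 108 and 61.3 RPM in tumor replicates 1, 2 and 3, ran in the order of Unc13a. The fibroblast markers, at 962, 1065 and 1106, ran in that of Unc13b.

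Among the Munc18 type proteins, Stxbp2 (Munc18-2, the partner of Stx11 and Stx3 in granule release; ENSMUSG00000004626.13, chr8:3630955-3643644, plus strand) was the most expressed. Its exonic RPKM was 162, 169.6 and 154 for bone marrow, 105, 110.4 and 106 for blood and 52.5, 48.9 and 49.7 for tumor, so all 3 compartments were separate. It was lower in tumor than in blood with a log2 fold change of -1.09 (SE 0.10, adjusted p = 3.87e-06) and lower than in bone marrow with a log2 fold change of -1.68 (SE 0.10, adjusted p = 2.39e-07), and lower in blood than in bone marrow with a log2 fold change of -0.59 (SE 0.10, adjusted p = 0.000627). Under plain totals the tumor changes were -0.64 and -1.23. Stxbp3 (Munc18c, the partner of Stx4) had an exonic RPKM of 18.5, 19.1 and 15.9 for bone marrow, 20.7, 17.1 and 20.4 for blood and 11.8, 12.1 and 9.45 for tumor, lower in tumor than in blood with a log2 fold change of -0.80 (SE 0.15, adjusted p = 0.000604) and than in bone marrow with a log2 fold change of -0.68 (SE 0.15, adjusted p = 0.00214). Its difference from bone marrow was -0.23 (adjusted p = 0.154) with plain totals. Stxbp5 (tomosyn, which competes with VAMPs for the target SNAREs) was 3.23 ± 0.254 (SD, n = 3) for bone marrow, 1.34 ± 0.289 for blood and 1.47 ± 0.229 for tumor, lower in blood and in tumor than in bone marrow with a log2 fold change of -1.28 (SE 0.20, adjusted p = 0.000414) and -1.14 (SE 0.20, adjusted p = 0.000559).

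Stxbp6 and Stxbp4 were sparse outside the tumor. Stxbp6 (amisyn, a SNARE-binding inhibitor) had 24, 4 and 18 reads for bone marrow, 4, 12 and 0 for blood and 81, 91 and 117 for tumor. It was higher in tumor than in blood, 4.93 (SE 1.27, adjusted p = 0.0053), and its difference from bone marrow was 2.77 (SE 1.27, adjusted p = 0.0836), or 3.21 (adjusted p = 0.0389) with plain totals. Stxbp4 (synip, which binds Stx4) had 7, 5 and 6 reads for bone marrow, 6, 0 and 2 for blood and 33, 22 and 22 for tumor and was higher in tumor than in blood, 3.58 (SE 1.13, adjusted p = 0.0159), a call lost without tumor replicate 1 (adjusted p = 0.0538) and with 1 FPKM added before the log (adjusted p = 0.32). Within blood, replicate 2 held the most reads of Stxbp6, and this was also the library with the most epithelium marker reads. It was the deepest blood library too, with 6830374 reads against 4580807 and 5566644. Bone marrow replicates 1 and 3 held 24 and 18 reads of Stxbp6, with the epithelium markers at 13.3 and 10.8 RPM. Both genes reached the minimum mean of reads only through their tumor reads, so the direction of these changes was largely set by the filter. The fitted sizes of these changes depend on the small constant added to each value before the log, and the part of other cell types in them was not tested.

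The synaptotagmin-like proteins tie Rab27 on granules to the plasma membrane, and the members with the most reads differed between compartments. Sytl1 (JFC1, an effector in azurophil granule release; ENSMUSG00000028860.12, chr4:133253090-133263113, minus strand) had an exonic RPKM of 11.3, 14.1 and 14.8 for bone marrow, 2.61, 2.28 and 1.19 for blood and 2.69, 1.42 and 0.8 for tumor. Every bone marrow library lay above every blood and tumor library, and blood and tumor overlapped. The log2 fold change was -2.78 (SE 0.46, adjusted p = 0.000634) in blood against bone marrow and -3.18 (SE 0.46, adjusted p = 0.000147) in tumor against bone marrow, and it was -0.40 (SE 0.46, adjusted p = 0.456) in tumor against blood. Sytl4 (granuphilin) was found mostly in blood, with 8, 0 and 0 reads for bone marrow, 46, 66 and 28 for blood and 0, 0 and 2 for tumor. Its log2 fold change was 6.33 (SE 1.37, adjusted p = 0.00357) in blood against bone marrow and -7.03 (SE 1.37, adjusted p = 0.000987) in tumor against blood, where the ratio of scaled rates in blood over tumor was 107 (95% counting interval 29 to 891). The fitted sizes of these Sytl4 changes depend on the small constant added before the log. Sytl3 had 4, 8 and 17 reads for bone marrow, 28, 36 and 22 for blood and 15, 3 and 4 for tumor, lower in tumor than in blood with -2.86 (SE 0.77, adjusted p = 0.00672) and higher in blood than in bone marrow with 2.17 (SE 0.77, adjusted p = 0.0395). The second of these calls was lost without bone marrow replicate 1 or 2 or without any 1 of the blood libraries (adjusted p = 0.0614 to 0.14). The summed platelet, macrophage, red cell and lymphocyte markers were higher in blood as well, although the macrophage marker C1qa was not. The part of these cell types in Sytl3 and Sytl4 was not tested. Both genes reached the minimum mean of reads only through their blood reads, so the direction of their calls was largely set by the filter.

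Sytl2 and Sytl5 were found in the tumor libraries. Sytl2 had 0, 0 and 0 reads for bone marrow, 0, 1 and 3 for blood and 50, 40 and 45 for tumor. Against the 0 reads of bone marrow it was at least 39.4-fold higher in tumor, taking 3 reads over the group as the floor, and it was higher than in blood with 5.17 (SE 1.00, adjusted p = 0.000938). Sytl2 reached the minimum mean of reads only through its tumor reads, so the direction of these differences was largely set by the filter. Sytl5 was not tested and had 0, 0 and 0 reads for bone marrow, 0, 0 and 0 for blood and 40, 5 and 41 for tumor, at least 18.8-fold higher than in blood on the same floor. Its tumor libraries differed among themselves. The low one, replicate 2, was also the lowest for the epithelium and acinar markers and the highest for the endothelium markers. The part of these cell types in Sytl5 was not tested. Their share of the family is drawn in the composition plot, where Sytl1 made up 96.7% to 98.1% of the Sytl reads per kilobase for bone marrow, 35.7% to 41.6% for blood and 22.2% to 65.5% for tumor. Sytl4 reached 35.1% to 39.3% in blood, and Sytl5 reached 13.3% to 62.3% in tumor.

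**Figure D3:**
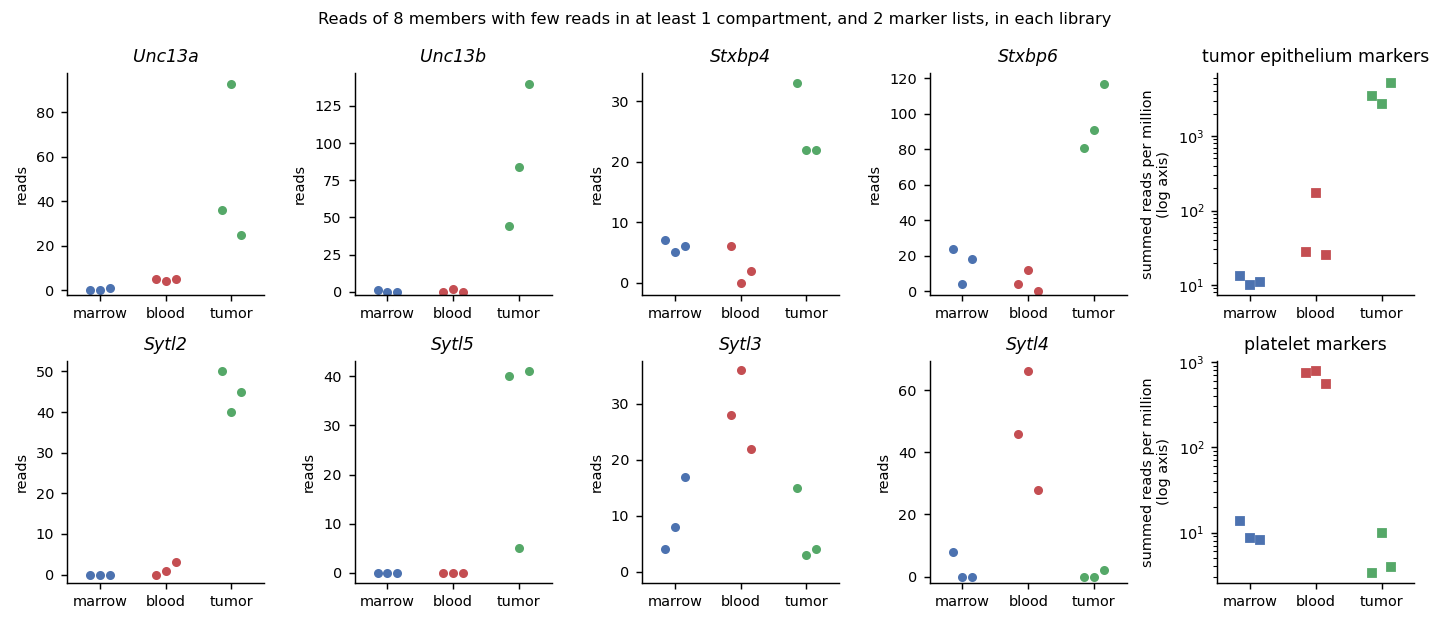
Recovered reads of 8 members in each library (circles, linear axes) beside the summed RPM of 10 tumor epithelium markers and 6 platelet markers (squares, log axes), with 3 libraries each of bone marrow, blood and tumor. Unc13a, Unc13b, Stxbp4, Stxbp6, Sytl2 and Sytl5 had their highest libraries in tumor, as the epithelium markers did, and Sytl3 and Sytl4 in blood, as the platelet markers did.

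Stx11 was the main syntaxin of the plasma membrane class, and Stx3 changed in the opposite direction. Stx11 (ENSMUSG00000039232.10, chr10:12938209-12964298, minus strand), a lipid-anchored syntaxin of immune cells, had an exonic RPKM of 153, 150.0 and 122 for bone marrow, 118, 120.4 and 131 for blood and 65.1, 73.8 and 50.1 for tumor. Each tumor library lay below each library of the other compartments, whereas bone marrow and blood overlapped. It was lower in tumor with -0.98 (SE 0.15, adjusted p = 0.000211) against blood and -1.18 (SE 0.15, adjusted p = 6.93e-05) against bone marrow, and lower by plain totals too (-0.53 and -0.73). Stx3 (ENSMUSG00000041488.14, chr19:11775118-11819403, minus strand), a syntaxin of apical and granule membranes, had an exonic RPKM of 0.838, 1.08 and 0.87 for bone marrow, 0.709, 0.627 and 0.822 for blood and 4.29, 3.15 and 2.58 for tumor. All tumor libraries stood above all others, 4.54-fold and 3.52-fold, with log2 fold changes of 2.18 (SE 0.32, adjusted p = 0.000128) against blood and 1.81 (SE 0.32, adjusted p = 0.00058) against bone marrow. Even so, Stx3 accounted for 3.67% to 5.47% of this class per kilobase in tumor and Stx11 for 83% to 86%. The epithelium, fibroblast, acinar and endothelium markers were high in the same libraries, and their part in Stx3 was not tested. Within the tumor, Stx3 was lowest in replicate 3, where the epithelium, fibroblast and acinar markers were highest and the endothelium markers lowest.

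Stx4a (syntaxin 4) had an exonic RPKM of 6.64, 4.93 and 6.18 for bone marrow, 4.39, 8.33 and 6.41 for blood and 5.66, 5.03 and 3.62 for tumor, and the libraries of the compartments overlapped. Its log2 fold change was -0.39 (SE 0.30, adjusted p = 0.261) in tumor against blood and -0.32 (SE 0.30, adjusted p = 0.378) against bone marrow. Stx2 was 6.88 ± 0.444 (SD, n = 3) for bone marrow, 4.09 ± 1.19 for blood and 2.67 ± 0.856 for tumor, lower in tumor than in bone marrow with -1.42 (SE 0.29, adjusted p = 0.00175). Its difference between blood and bone marrow, -0.79 (SE 0.29, adjusted p = 0.048), lost the call when any 1 of 6 libraries was left out (any bone marrow library, blood replicate 1 or 2, or tumor replicate 1). Stx1a had 1, 1 and 1 reads for bone marrow, 1, 2 and 0 for blood and 2, 8 and 16 for tumor, and Stx19 had 0, 16 and 3 reads for bone marrow, 10, 12 and 12 for blood and 5, 1 and 3 for tumor.

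Snap23, the SNAP-25 type partner for granule fusion at the neutrophil plasma membrane (ENSMUSG00000027287.13, chr2:120567671-120601255, plus strand), was the member with the highest level in blood and tumor. Its exonic RPKM was 100.2, 117 and 96.5 for bone marrow, 307, 299.9 and 298 for blood and 158, 167 and 114 for tumor. The blood libraries lay far above the others, and the tumor libraries overlapped those of bone marrow only through the lowest tumor value. The log2 fold change was 1.54 (SE 0.15, adjusted p = 1.93e-05) in blood against bone marrow, 2.90-fold, and -1.06 (SE 0.15, adjusted p = 0.000104) in tumor against blood. Tumor against bone marrow was 0.47 (SE 0.15, adjusted p = 0.0201), a call lost without bone marrow replicate 1 or 3 or tumor replicate 1 or 2 (adjusted p = 0.0663 to 0.0726) and with all libraries centred on the median gene, while plain totals gave 0.92 (adjusted p = 4.29e-05). Snap29, which acts in autophagosome and endosome fusion, was likewise highest in blood, with an exonic RPKM of 19.7, 19.4 and 18.7 for bone marrow, 47, 47.6 and 49.2 for blood and 19.2, 25.2 and 16.8 for tumor. It was higher in blood than in bone marrow, 1.31 (SE 0.15, adjusted p = 5.03e-05), and lower in tumor than in blood, -1.25 (SE 0.15, adjusted p = 2.96e-05). Tumor and bone marrow differed by 0.06 (SE 0.15, adjusted p = 0.733), or 0.52 (adjusted p = 0.0054) with plain totals. The summed platelet, macrophage, red cell and lymphocyte markers were higher in blood as well, as were the neutrophil markers Csf3r and Cxcr2. The part of the cell mix in Snap23, Snap29 and other members highest in blood, such as Vamp8, was not tested. Snap47 had few reads, an exonic RPKM of 1.75, 2.40 and 2.33 for bone marrow, 1.53, 1.55 and 1.29 for blood and 3.34, 5.69 and 11 for tumor, and was higher in tumor than in blood with 2.02 (SE 0.42, adjusted p = 0.00154). Its call against bone marrow, 1.47 (SE 0.42, adjusted p = 0.0124), was lost without tumor replicate 3 (adjusted p = 0.051), the library in which Snap47 was highest. The epithelium, fibroblast and acinar markers were highest in that library as well and the endothelium markers lowest, and their part in Snap47 was not tested. Snap25, the neuronal member, had 0, 2 and 2 reads for bone marrow, 3, 23 and 0 for blood and 17, 6 and 7 for tumor, and the blood library with 23 reads was replicate 2.

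The stretches of 200 bases just before the annotated 5′ end of 4 of these genes are shown because they belong to members with different courses, Snap23 and Nsf higher in blood than in bone marrow, Stx11 lower in tumor and Stx3 higher in tumor. They are RefSeq promoter sequences of GRCm38.p6, printed 5′ to 3′ along the gene, from chr2:120567471-120567670 (plus strand), chr11:103954057-103954256 (minus strand), chr10:12964299-12964498 (minus strand) and chr19:11819404-11819603 (minus strand). Capitals mark matches on either strand to any of 3 motifs. ACGTG is a form of the core bound by hypoxia-inducible factors and lies within the E-box. Other forms of that core, such as GCGTG, were not searched or marked. The myeloid factor PU.1 binds sites with the core GAGGAA. The third motif is that of AP-1, which is written as TGANTCA with N for any base.
Snap23: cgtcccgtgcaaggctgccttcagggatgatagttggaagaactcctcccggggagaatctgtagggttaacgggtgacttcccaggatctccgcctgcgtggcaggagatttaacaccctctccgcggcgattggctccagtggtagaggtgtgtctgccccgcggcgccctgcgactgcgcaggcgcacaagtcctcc
Nsf: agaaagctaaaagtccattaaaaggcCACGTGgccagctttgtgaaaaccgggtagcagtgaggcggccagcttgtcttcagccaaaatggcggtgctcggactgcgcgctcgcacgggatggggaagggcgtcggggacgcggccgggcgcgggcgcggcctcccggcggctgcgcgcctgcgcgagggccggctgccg
Stx11: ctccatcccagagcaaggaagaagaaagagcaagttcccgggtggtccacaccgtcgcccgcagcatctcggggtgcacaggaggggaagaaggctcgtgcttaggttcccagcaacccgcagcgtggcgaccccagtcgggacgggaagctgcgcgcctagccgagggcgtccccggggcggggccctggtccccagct
Stx3: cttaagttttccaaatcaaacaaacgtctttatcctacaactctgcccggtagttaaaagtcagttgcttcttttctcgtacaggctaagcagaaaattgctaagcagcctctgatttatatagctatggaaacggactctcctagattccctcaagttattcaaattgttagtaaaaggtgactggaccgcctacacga
Of these 4 stretches, that of Nsf held a match to the motifs as written, an E-box that contains ACGTG on both strands. In windows of the same length before the RefSeq start, ACGTG was present for 7 of the 42 members found in the RefSeq table (16.7%) and in 14% of 32851 windows of all genes. GAGGAA was present for 6 members (14.3%) and in 19% of windows, and TGANTCA for 1 member, Gosr2 (2.38%), and in 5.48% of windows. A member was counted if any of its windows matched, whereas all genes were counted by window, so these percentages are not on the same footing. A match describes the letters of the window, not a bound site.

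Among the R-SNAREs, which sit on the vesicle, Vamp3 had the highest mean level in each compartment and Vamp8 was called in all 3 contrasts. Vamp8 (of endosomes and secretory granules; ENSMUSG00000050732.9, chr6:72385223-72390703, minus strand) had an exonic RPKM of 30.7, 30.7 and 30.4 for bone marrow, 52.9, 61.1 and 48.3 for blood and 21.8, 19 and 13.7 for tumor, with no overlap between compartments. It was higher in blood than in bone marrow, 0.82 (SE 0.17, adjusted p = 0.00311), and lower in tumor than in blood, -1.59 (SE 0.17, adjusted p = 1.64e-05). Its difference between tumor and bone marrow was -0.78 (SE 0.17, adjusted p = 0.00292), or -0.32 (adjusted p = 0.0985) with plain totals. Vamp3 (cellubrevin, of recycling endosomes; ENSMUSG00000028955.3, chr4:151047300-151057963, minus strand) had an exonic RPKM of 68.3, 70.3 and 68.8 for bone marrow, 60.3, 58.9 and 67.2 for blood and 39.5, 37.9 and 28.4 for tumor. Each tumor library was below each other library, with -0.83 (SE 0.14, adjusted p = 0.000307) against blood and -0.99 (SE 0.14, adjusted p = 0.000112) against bone marrow, and plain totals gave -0.38 and -0.53. Vamp2 (synaptobrevin, linked to secretory vesicle and specific granule release in neutrophils; ENSMUSG00000020894.15, chr11:69088490-69092384, plus strand) had an exonic RPKM of 16.3, 13.4 and 11.7 for bone marrow, 18, 16 and 16.3 for blood and 17.4, 26 and 14 for tumor, and its compartments overlapped. Its log2 fold change was 0.14 (SE 0.22, adjusted p = 0.569) in tumor against blood and 0.44 (SE 0.22, adjusted p = 0.105) against bone marrow, and with plain totals it was 0.59 (adjusted p = 0.0183) and 0.89 (adjusted p = 0.00238). Within the VAMPs, which does not depend on the scaling, Vamp2 took 8.85% to 12.1% of the reads per kilobase for bone marrow, 10.3% to 11.7% for blood and 17.6% to 25.1% for tumor. Over the same libraries Vamp8 took 22.2% to 22.9%, 31.6% to 39.3% and 18.3% to 22.1%.

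Vamp1 (a synaptobrevin also described on neutrophil granules) had an exonic RPKM of 2.28, 2.07 and 1.82 for bone marrow, 2.51, 2.34 and 2.37 for blood and 1.13, 2.28 and 1.34 for tumor. Its lower level in tumor than in blood, -0.67 (SE 0.26, adjusted p = 0.0384), was not called with plain totals or without any 1 of 7 libraries, bone marrow replicate 3 and tumor replicate 2 being the exceptions (adjusted p = 0.0515 to 0.134). Vamp5 was 7.70 ± 1 (SD, n = 3), 5.98 ± 1.57 and 2.55 ± 0.229 in bone marrow, blood and tumor, lower in tumor with -1.20 (SE 0.26, adjusted p = 0.00184) against blood and -1.58 (SE 0.26, adjusted p = 0.000359) against bone marrow. Ykt6, a lipid-anchored R-SNARE of Golgi and autophagic fusion, was 30.8 ± 1.88, 22.5 ± 1.61 and 16 ± 1.33, with -0.94 (SE 0.13, adjusted p = 9.50e-05) in tumor against bone marrow. Vamp4, of the trans-Golgi network, was 11.9 ± 1.41, 12.7 ± 2.71 and 14.1 ± 3.54 and passed in no contrast under the authors' scaling, while plain totals put it higher in tumor than in blood, 0.59 (adjusted p = 0.0284), and than in bone marrow, 0.67 (adjusted p = 0.0186).

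Other syntaxins serve the endosomes, the Golgi and the ER. Of the 8 in this class, 4 were lower and none higher in tumor than in blood, beside 28% and 39.6% of all genes. The log2 fold changes of the class lay between -1.21 and 0.67. Against bone marrow 5 were lower and none higher, beside 26.9% and 30% of all genes. Plain totals gave 1 lower and 2 higher against blood (all genes 19.4% and 49.3%). Against bone marrow they gave 1 lower and 1 higher (all genes 17.3% and 42%). Stx7, the late endosomal syntaxin that was the most expressed of them, had an exonic RPKM of 58.3, 62.7 and 58 for bone marrow, 57.8, 67.3 and 55.8 for blood and 51.1, 62.1 and 38.1 for tumor, and its log2 fold changes were -0.28 (SE 0.16, adjusted p = 0.152) and -0.27 (SE 0.16, adjusted p = 0.184) for tumor against blood and bone marrow. Stx17, which brings autophagosomes to lysosomes, was 16.3 ± 0.612 (SD, n = 3), 23.3 ± 2.66 and 10.1 ± 1.63, lower in tumor than in blood with -1.21 (SE 0.14, adjusted p = 3.08e-05). Stx5a of the Golgi was lower in tumor than in blood by the authors' scaling, -0.69 (SE 0.12, adjusted p = 0.000399), and gave -0.24 (adjusted p = 0.0758) by plain totals. Stx12 of recycling endosomes was 16 ± 1.68, 15 ± 1.64 and 18 ± 0.306, and of the scalings only plain totals, with either tool, called it higher in tumor, 0.72 (adjusted p = 0.000912) against blood and 0.63 (adjusted p = 0.0028) against bone marrow. Stx6 of the trans-Golgi network gave 0.67 (SE 0.28, adjusted p = 0.0564) in tumor against blood. It was called with plain totals (1.12, adjusted p = 0.00506), without tumor replicate 1 (adjusted p = 0.00149) or blood replicate 3 (adjusted p = 0.0459), with a minimum mean of 50 reads (adjusted p = 0.0483) and with a constant of 2 reads (adjusted p = 0.0442).

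The Golgi and endosomal partners Bet1 and Bet1l, which are close relatives, moved in opposite directions between bone marrow and blood and between blood and tumor. Bet1 had an exonic RPKM of 4.37, 4.88 and 6.70 for bone marrow, 0.882, 1.30 and 1.09 for blood and 3.63, 3.58 and 2.70 for tumor. All blood libraries lay below all others, with -2.27 (SE 0.29, adjusted p = 0.000128) in blood against bone marrow and 1.60 (SE 0.29, adjusted p = 0.000638) in tumor against blood. Bet1l had an exonic RPKM of 7.91, 9.97 and 9.37 for bone marrow, 13.9, 18.1 and 15.6 for blood and 4.36, 3.41 and 5 for tumor, highest in blood and lowest in tumor, with 0.80 (SE 0.19, adjusted p = 0.00594) and -1.91 (SE 0.19, adjusted p = 9.12e-06) in the same contrasts. In tumor against bone marrow both had a negative change, -1.10 (SE 0.19, adjusted p = 0.000549) for Bet1l and -0.67 (SE 0.29, adjusted p = 0.0699) for Bet1. Reads of Bet1l may include some of Ric8a, which overlaps it on the opposite strand. Vti1a and Vti1b, a related pair of endosomal Q-SNAREs, also differed between blood and bone marrow. Vti1a was lower in blood than in bone marrow with -0.99 (SE 0.21, adjusted p = 0.0032) and Vti1b higher with 0.47 (SE 0.14, adjusted p = 0.0225), although the Vti1b call was lost without bone marrow replicate 1 or 2 or blood replicate 2 or 3 (adjusted p = 0.0579 to 0.0821). Both were lower in tumor than in bone marrow, Vti1a with -1.43 (SE 0.21, adjusted p = 0.000185) and Vti1b with -0.51 (SE 0.14, adjusted p = 0.0109). Plain totals gave Vti1b -0.06 (adjusted p = 0.738) there. Gosr2 was lower in tumor than in blood with -0.52 (SE 0.17, adjusted p = 0.0175), a call lost without blood replicate 2 or 3 or tumor replicate 3 (adjusted p = 0.0503 to 0.0653), with quantile normalization (adjusted p = 0.0892) and without the variance trend (adjusted p = 0.053). Plain totals gave -0.07 (adjusted p = 0.679) for it. Gosr1 was 11.1 ± 1.41 (SD, n = 3), 12.1 ± 2.12 and 10.1 ± 0.651.

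The factors that take SNARE complexes apart were all higher in blood than in bone marrow, where 18.4% of all genes were higher. Napa (alpha-SNAP; ENSMUSG00000006024.11, chr7:16098458-16117975, plus strand) had an exonic RPKM of 34.6, 35.1 and 32.7 for bone marrow, 55.7, 66.5 and 63.1 for blood and 60.1, 73.1 and 55.4 for tumor. Every blood and tumor library was above every bone marrow library, and blood and tumor overlapped. The log2 fold change was 0.85 (SE 0.13, adjusted p = 0.000349) in blood and 0.87 (SE 0.13, adjusted p = 0.000171) in tumor against bone marrow, and 0.02 (SE 0.13, adjusted p = 0.904) in tumor against blood. The last of these was 0.47 (adjusted p = 0.0021) with plain totals and turned to -0.42 when each library was centred on its median gene (adjusted p = 0.0175). Nsf (the ATPase; ENSMUSG00000034187.17, chr11:103821782-103954056, minus strand) had an exonic RPKM of 6.58, 7.88 and 7.33 for bone marrow, 11.9, 13.8 and 13.1 for blood and 11.3, 15.5 and 9.82 for tumor and the same order, with 0.83 (SE 0.17, adjusted p = 0.00245) in blood and 0.73 (SE 0.17, adjusted p = 0.0037) in tumor against bone marrow and -0.10 (SE 0.17, adjusted p = 0.603) in tumor against blood. Centring on the median gene gave Nsf -0.54 (adjusted p = 0.0182) in the last of these. Napg (gamma-SNAP) was higher in blood than in bone marrow, 0.85 (SE 0.19, adjusted p = 0.00427), but lower in tumor than in blood, -1.39 (SE 0.19, adjusted p = 8.63e-05). Its exonic RPKM was 4.10, 4.74 and 5.60 for bone marrow, 9.26, 7.22 and 9.60 for blood and 2.74, 3.27 and 3.96 for tumor.

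**Figure D4:**
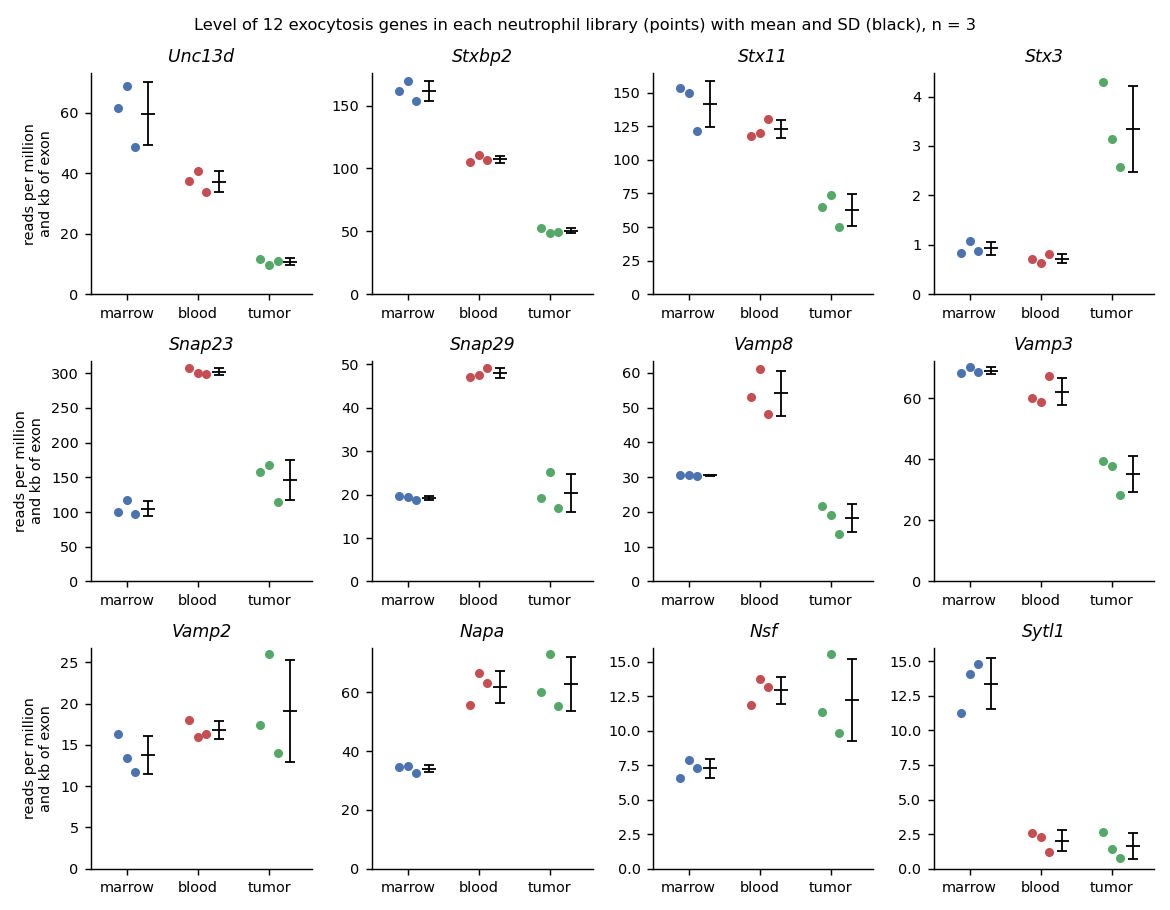
Exonic RPKM of 12 members in each library (points; linear axes from 0) with the mean and SD of the 3 libraries of each compartment in black. Unc13d and Stxbp2 step down from bone marrow to blood to tumor, Snap23, Snap29 and Vamp8 peak in blood, Napa and Nsf are higher in blood and tumor than in bone marrow, Stx3 is highest in tumor and Sytl1 in bone marrow.

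Shares within a family, taken per kilobase of exon, do not depend on the library scaling and are given as a description. Stx11 held 89.2% to 91.6% of the plasma membrane syntaxins for bone marrow, 89.7% to 92.8% for blood and 83% to 86% for tumor, where the share of each tumor library was below that of each other library. Snap23 held 82% to 84.2%, 85.5% to 86.3% and 80.3% to 87.3% of the SNAP-25 family. Vamp3 went in share from 50.8% to 51.8% in bone marrow to 37.9% to 43.9% in blood, and was 36.5% to 40.6% in tumor. All members together took 3936 to 4332 RPM for bone marrow, 4794 to 4954 for blood and 2547 to 3310 for tumor, with no overlap between compartments. Per 1000000 reads of the plain totals they took 3448 to 3469, 4050.3 to 4141 and 3110 to 3592, where tumor and bone marrow overlapped. Exons of 11 members overlap another gene, among them Bet1l, Gosr2, Snap29, Snap47, Stx18, Stx4a, Stx5a, Sytl3, Unc13a and Vti1b, and reads of the pairs may be shared because the strand setting of the counting is not given in the sources used here.

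**Figure D5:**
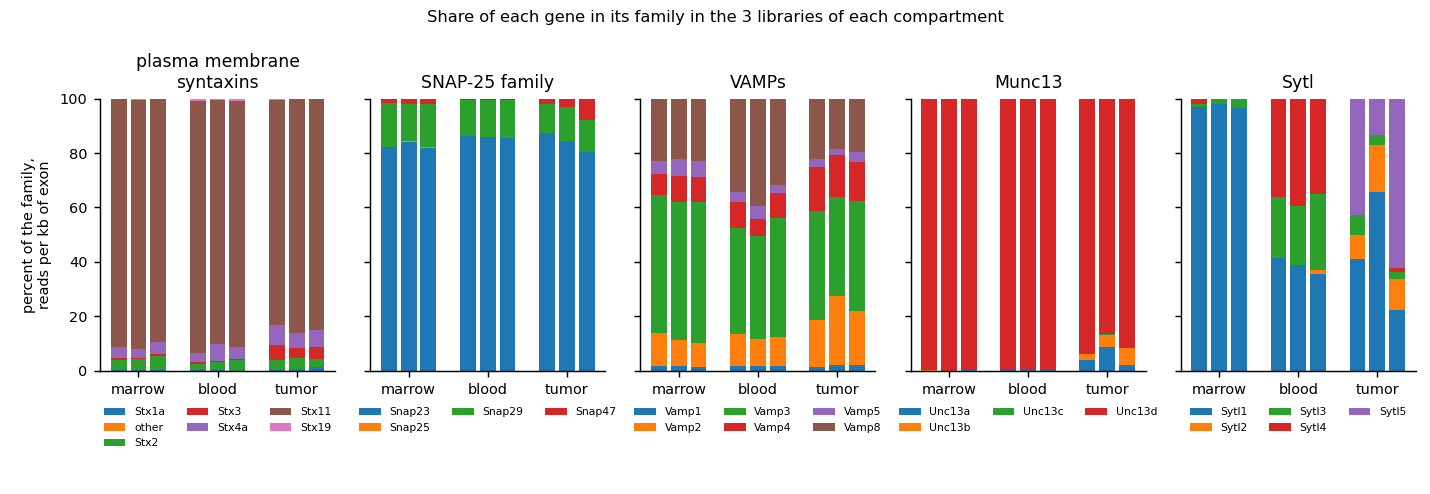
Percent of the reads per kilobase of exon that each gene took within its family, 1 bar per library, for the plasma membrane syntaxins (other, a member not reported by name), the SNAP-25 family, the VAMPs, Munc13 and Sytl. Stx11, Snap23 and Unc13d dominate their families in all 9 libraries, whereas the Sytl family is mostly Sytl1 in bone marrow and shared among Sytl1, Sytl3 and Sytl4 in blood and Sytl1, Sytl2 and Sytl5 in tumor.

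Genes that act beside the SNAREs showed differences of their own. Rab27a, the GTPase on neutrophil granules to which Unc13d and the Sytl proteins bind, was lower in tumor with -2.04 (SE 0.12, adjusted p = 2.61e-07) against blood and -1.89 (SE 0.12, adjusted p = 4.25e-07) against bone marrow, and its difference between blood and bone marrow was 0.15 (SE 0.12, adjusted p = 0.344). Rab3d, another secretory Rab, was lower in blood than in bone marrow with -2.13 (SE 0.16, adjusted p = 3.22e-06). Rab27b, which platelets also use, was higher in blood than in bone marrow with 6.18 (SE 1.10, adjusted p = 0.00104) and higher in tumor than in bone marrow with 6.54 (SE 1.10, adjusted p = 0.000438). It had 0, 3 and 13 reads for bone marrow, 91, 170 and 103 for blood and 212, 172 and 332 for tumor. The fitted sizes of both changes therefore depend on the small constant added before the log. Of the 9 exocyst subunits, which tether vesicles before fusion, 6 were lower in blood than in bone marrow, 5 lower and 1 higher in tumor than in blood, and 5 lower in tumor than in bone marrow, where 25.9%, 28% and 26.9% of all genes were lower. The median over the exocyst was -0.61, -0.48 and -0.66 in these contrasts, beside -0.13, 0.30 and 0.07 for all genes. With plain totals it was -0.03 and -0.21 in the tumor contrasts, beside 0.74 and 0.52. Only 4 of 24 calcium sensors and clamps (Syt1 to Syt17, Cplx and Doc2 genes) had enough reads to be tested, and Syt11 among them was higher in blood than in bone marrow with 3.83 (SE 0.19, adjusted p = 2.86e-07) lower in tumor than in blood with -1.70 (SE 0.19, adjusted p = 2.02e-05) and higher in tumor than in bone marrow with 2.14 (SE 0.19, adjusted p = 4.63e-06). The other 3 were called higher in tumor than in blood, beside 39.6% of all genes. They reached the minimum mean of reads only through their tumor reads, so the direction of these calls was largely set by the filter. The part of other cell types in them was not tested. Syt8 had 0, 21 and 2 reads for blood and 102, 138 and 147 for tumor, Syt16 had 0, 0 and 0 for blood and 21, 49 and 57 for tumor, and Cplx2 had 0, 6 and 0 for blood and 30, 39 and 18 for tumor. Of 10 other SNAREs and SM proteins, 5 were lower in blood than in bone marrow (25.9% of all genes), 3 were higher and 1 lower in tumor than in blood (39.6% and 28%), and 2 were higher and 3 lower in tumor than in bone marrow (30% and 26.9%). Their medians were -0.51, 0.24 and -0.02, and 0.69 and 0.43 in the tumor contrasts with plain totals.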

How the data were processed

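RNA of 9 neutrophil libraries, 3 each from bone marrow, blood and tumor, was made into cDNA by SMARTSeq v2. The authors mapped reads to GRCm38/mm10 and counted them on GENCODE M7 genes (STAR 2.5.2b, featureCounts 1.5.0 and edgeR 3.8.6 in the submitters' notes), then deposited log2 FPKM values for 46517 genes, the file used here. The spacing of low values gave back whole reads, 99.999% of them within 0.02 of a whole number. The FPKM length was the genomic span for 85.1% of the genes found in GENCODE M21 (40 of the 50 members), so levels were recomputed per exon length from M21, which also gave coordinates. Genes with a mean of at least 10 reads (12217) were fitted by linear models (limma 3.58.1, R 4.3.3, with eBayes trended on reads), 1 coefficient per compartment, Benjamini-Hochberg adjustment, threshold 0.05, and the code was tested on simulated data. The methods of the study used limma-voom on counts, which was run as an alternative. The filter replaced one on log2 FPKM over 0, which drops genes with long introns.

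Values of every library are given for members with a textbook role in granulocyte exocytosis and, in each contrast, for the 6 called members with the largest change. Others are given by mean or count, and some members enter the counts but are not reported here by name. Some further members are named with values chosen after their values were seen (Stxbp3, Stxbp5, Snap29, Vamp5, Stx17, Bet1l and others of their classes). The members and lists were chosen with earlier results of these data known. Alternatives covered filters, scalings, constants, variance settings, voom, the replicate block and each library left out. Plain totals with voom and median centring were chosen after seeing the data. Intervals and floors cover counting error only.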

Additional observations from a re-analysis of the deposited data

How the results depend on the processing

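Of 81 calls, 54 were kept in every alternative fit that tested the gene, 39 of them with a log2 change of at least 1. Among the 54 were all those of Unc13d, Stxbp2, Stx11, Stx3, Vamp3 and Sytl1, while 9 other calls were lost only under plain totals or median centring. Plain totals gave 15 members higher in tumor than in blood and 14 higher and 12 lower in tumor than in bone marrow, and limma-voom on plain totals gave 15, 15 and 13. Of all 12217 genes, plain totals called 6023, 5135 and 2109 in the same order, and limma-voom on them 6047, 5480 and 2246. Among 26 members over log2 FPKM 0, 1 was higher in tumor than in blood, 2 higher in tumor than in bone marrow and 5 lower in blood than in bone marrow. Of the 7794 genes over that limit, 2205, 1766 and 1892 were called in the same way. Among 36 members with a mean of 50 reads, 4 and 5 were higher in tumor than in blood and bone marrow, beside 2991 and 2277 of 8257 genes. A log2 change of at least 1 left 11 lower in each tumor contrast, and 5 higher and 3 lower in blood than in bone marrow. The share of all genes at that threshold was not computed. Centring each library on its median gene gave 9 higher and 29 lower in tumor than in blood, and 8 and 23 against bone marrow. Of all 12217 genes, centring gave 3907 higher and 4572 lower in tumor than in blood, and 3147 and 3931 against bone marrow. The log2 fold change of Gosr2 in tumor against bone marrow turned to 0.03 under plain totals with either tool (0.0277 and 0.0302), and that of Napa in tumor against blood to -0.42 under centring. The filters change which genes are tested, and for the other shifts the cause was not tested.

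Leaving out 1 library gave 8 to 10 members higher and 18 to 23 lower in tumor than in blood, 8 to 10 higher and 18 to 21 lower in tumor than in bone marrow, and 9 to 12 higher and 6 to 9 lower in blood than in bone marrow. Of all 12217 genes, 4476 to 4750 were then higher and 3137 to 3387 lower in tumor than in blood. For tumor against bone marrow the ranges were 3222 to 3734 and 2797 to 3301. For blood against bone marrow they were 1848 to 2322 and 2514 to 3180. Libraries with the same replicate number did not deviate together (9 correlations, -0.164 to 0.0789). With the replicate block, 9 members were higher and 21 lower in each tumor contrast, and 11 higher and 7 lower in blood than in bone marrow, where Stx2, Stx8 and Sytl3 were no longer called. Of all 12217 genes, the block gave 4806 higher and 3437 lower in tumor than in blood. It gave 3658 and 3301 in tumor against bone marrow, and 2247 and 3168 in blood against bone marrow. Depth limits Unc13a, Unc13b, Sytl2 and Sytl4, which had at most a few reads in some compartments.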

Other observations

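Pairs of genes of the machinery, partners or paralogs, were also set against each other within each library, a log2 ratio of reads per kilobase of exon that needs no library scaling. The pairs were chosen after their values were seen and are given without a test. Snap23 over Stx11, both on the plasma membrane side, was -0.44 ± 0.15 (SD, n = 3) for bone marrow, 1.30 ± 0.10 for blood and 1.21 ± 0.06 for tumor. The balance was thus toward Stx11 in bone marrow and toward Snap23 in the others. Stx3 over Stx11 was -7.23 ± 0.23 (SD, n = 3) for bone marrow, -7.39 ± 0.14 for blood and -4.25 ± 0.31 for tumor. Stxbp2 over Stxbp3, the 2 Munc18 proteins with many reads in all compartments, was 3.18 ± 0.08 (SD, n = 3) for bone marrow, 2.47 ± 0.19 for blood and 2.19 ± 0.19 for tumor. Vamp8 over Vamp2 was 1.16 ± 0.23 (SD, n = 3) for bone marrow, 1.68 ± 0.22 for blood and -0.05 ± 0.39 for tumor, the highest ratio being in blood. Napa, which recycles SNAREs, over Stxbp2, which supports their assembly, was -2.24 ± 0.03 (SD, n = 3) for bone marrow, -0.80 ± 0.10 for blood and 0.31 ± 0.23 for tumor, and each compartment's libraries were separate from those of the others. Snap23 over Snap29, both of which were highest in blood, was 2.43 ± 0.14 (SD, n = 3) for bone marrow, 2.65 ± 0.05 for blood and 2.84 ± 0.17 for tumor, a narrower range than for the other pairs.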
